A study of Mus musculus with 6 samples.

Results

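The LIM domain cofactors described here are the 6 genes Ldb1, Ldb2, Lmo1, Lmo2, Lmo3 and Lmo4, taken by symbol from the 32531 gene features counted in each library, and all 6 were found. Translating ribosome affinity purification isolates RNA on ribosomes whose L10a subunit is fused to EGFP. In the mouse line Lhx5-TRAP DT154 (Lhx5-EGFP/Rpl10a) the tagged protein is made in cells with activity of the driver gene Lhx5, so the line marks cells by the transgene and not by a cell type as such. The samples were 3 IP libraries, from RNA pulled down out of hypothalamus homogenate with anti-EGFP antibodies, and 3 unbound libraries, from RNA left behind. Every library came from untreated adult control mice of this line, so the transgene is present in both groups. Titles name the unbound libraries as input while the sample type names them as unbound; the labels leave this unsettled. The labels name no sex and do not say whether libraries came from separate or pooled animals, so p-values measure the spread between these samples, which may be technical.

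LIM homeodomain proteins such as Lhx5 bind DNA through a homeodomain and carry LIM domains that bind Ldb cofactors. Ldb proteins self-associate and so join LIM proteins, and the DNA elements they sit on, into larger complexes. Lmo proteins consist of little more than LIM domains, have no DNA-binding domain, and occupy the same site on Ldb. They can therefore compete with LIM homeodomain proteins, or bring Ldb to bHLH and GATA factors, as Lmo2 does in blood and endothelial cells.

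Gene counts ran from 32471045 to 46293837 per IP library and from 32926146 to 40768577 per unbound library. Levels are given as CPM, counts scaled to library size, after TMM scaling, a trimmed-mean correction for library composition. Genes were tested with edgeR's quasi-likelihood test, and adjusted p-values are by Benjamini-Hochberg over the 16991 genes tested, with a threshold of 0.05. All 6 cofactors passed the filter on low counts. Lhx5 stood at 56.7, 58.1 and 70.5 CPM in IP replicates 1 to 3, against 2.03, 1.86 and 6.28 CPM in unbound replicates 1 to 3, so the IP libraries held more of the driver gene's RNA than the unbound ones, as labelled. Unbound replicate 3 stood apart. The 14 striatal and cortical marker genes summed to 548, 646 and 331 CPM in the IP libraries, against 2053, 1835 and 166 CPM in unbound replicates 1 to 3. The 11 midbrain and monoaminergic markers summed to 23.7, 23.0 and 22.1 CPM in IP, against 48.8, 34.5 and 312 CPM in unbound replicates 1 to 3. The tests of the members, the ratios between them and the gene lists are therefore given with and without that library.

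With TMM scaling Ldb1 was the cofactor that rose in IP RNA and Lmo3 the one that fell. With the libraries scaled on pan-neuronal markers the call of Ldb1 was lost, at a log2 fold change of -0.0011 (edgeR, Benjamini-Hochberg adjusted p = 0.995), and Lmo3 was still called lower. Ldb1 was 1.43-fold higher in IP and Lmo3 2.05-fold lower, and for both genes every IP library lay outside the range of the unbound libraries. Ldb2 differed little between the groups, and Lmo1, Lmo2 and Lmo4 did not pass. With all libraries 1 of 6 members was called higher, against a background of 21.1% of all tested genes, and 1 of 6 was called lower, against 23.2%. All IP libraries lay above all unbound ones for 1 of 6 members, against 27.1% of all tested genes, and below them for 1 of 6, against 28.7%. Without unbound replicate 3, 2 of 6 members rose (Ldb1 and Lmo1) and 3 of 6 fell (Lmo2, Lmo3 and Lmo4), against 24.0% and 25.8% of all genes tested in that fit. These 5 members also had groups without overlap once that library was set aside, 2 above and 3 below, where 34.1% of all tested genes lay above and 35.3% below. Leaving out the third pair gave the same counts of 2 and 3, against 26.0% and 27.3%. With the lane 2 libraries alone 0 of 6 members passed in either direction, against 7.49% of genes called higher and 14.7% called lower. In bulk samples, fewer cells of a type and less RNA per cell cannot be told apart.

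**Figure D1:**
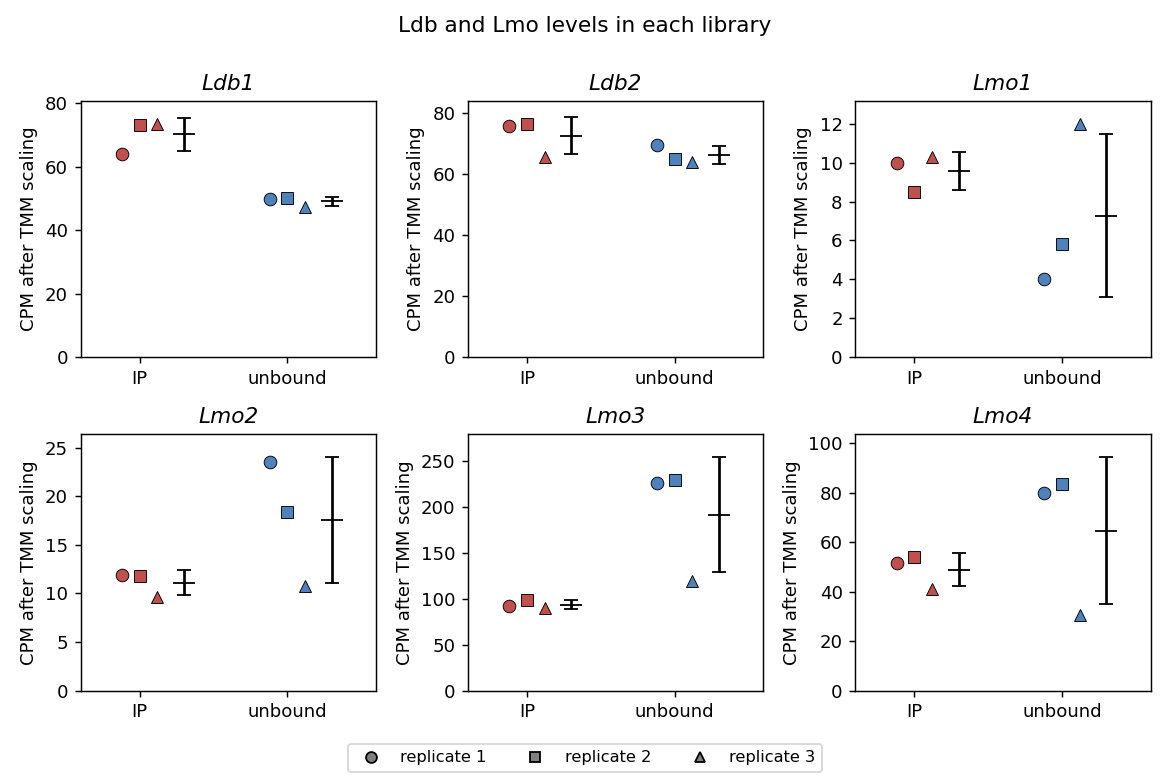
Level of each cofactor in CPM after TMM scaling (linear axes from 0), with 3 IP libraries in red left of 3 unbound libraries in blue; circles, squares and triangles are replicates 1, 2 and 3, and the black bar is the mean with its SD. For Ldb1 and Lmo3 the groups do not overlap, and for Lmo1, Lmo2, Lmo3 and Lmo4 the triangle of unbound replicate 3 lies on the IP side of the other unbound libraries.

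Ldb1 encodes the widely expressed LIM domain-binding protein. It lies on the minus strand of chromosome 19 from 46031570 to 46045214 (mm10, which is GRCm38; positions of genes from GENCODE M21). Its exons share 177 bases, 3.84% of their length, with exons of Pprc1 on the other strand, and since the strand setting of the counting is not given, reads there cannot be assigned with certainty. Ldb1 stood at 64.1, 73.0 and 73.4 CPM in the IP libraries, against 49.7, 50.1 and 47.4 CPM in the unbound ones. All 3 IP values were above all 3 unbound values, and unbound replicate 3 was close to the other unbound libraries. The log2 fold change was 0.52 ± 0.12 (SE; edgeR, Benjamini-Hochberg adjusted p = 0.00978). It was 0.49 without unbound replicate 3 (edgeR, Benjamini-Hochberg adjusted p = 0.0141). With the lane 2 libraries only, 2 per group, the value was 0.51 and did not pass (edgeR, Benjamini-Hochberg adjusted p = 0.109). Lane 4, with 1 library per group, gave a log2 difference of 0.54. Under pan-neuronal scaling Ldb1 did not pass, as given above.

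Ldb2, the paralog of Ldb1 and known to bind the same LIM domains, spans 44472132 to 44799680 on the minus strand of chromosome 5. Its levels were 75.7, 76.3 and 65.4 CPM in IP, against 69.5, 64.9 and 64.0 CPM in unbound RNA. The groups overlapped, with IP replicate 3 among the unbound values. The log2 fold change was 0.13 ± 0.13 (SE; edgeR, Benjamini-Hochberg adjusted p = 0.424), and 0.10 without unbound replicate 3 (edgeR, Benjamini-Hochberg adjusted p = 0.546). Counts of Ldb1 over those of Ldb2 do not depend on library scaling. As a log2 ratio they averaged -0.05 ± 0.20 in IP and -0.43 ± 0.06 in unbound libraries (SD, n = 3 each), a difference of 0.38 that was also 0.38 without unbound replicate 3. Every IP library was above every unbound one, with a two-sided exact permutation p of 0.1, the smallest that 3 against 3 allow (0.167 adjusted over the 5 ratios computed).

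Lmo3, a LIM-only gene expressed mainly in neurons, lies on the minus strand of chromosome 6 from 138362918 to 138581968. The 3 IP libraries held 91.4, 98.7 and 89.8 CPM, against 226, 229 and 119 CPM in the unbound libraries. The IP values lay close together and below all unbound values, and unbound replicate 3 stood between the IP libraries and the other unbound ones. The mean was 93.3 ± 4.76 CPM over IP and 191 ± 62.2 CPM over unbound libraries (SD, n = 3 each). The log2 fold change was -1.04 ± 0.23 (SE; edgeR, Benjamini-Hochberg adjusted p = 0.00752). Without unbound replicate 3 it was -1.29 (edgeR, Benjamini-Hochberg adjusted p = 5.7e-05). With the lane 2 libraries alone it was -0.93 and did not pass (edgeR, Benjamini-Hochberg adjusted p = 0.0819), and lane 4 gave -1.21.

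Lmo4, a LIM-only gene of many epithelial and neural tissues, spans 144188530 to 144205220 on the minus strand of chromosome 3. It was at 51.4, 53.8 and 41.1 CPM in IP, against 79.8, 83.5 and 30.4 CPM in unbound libraries. Unbound replicates 1 and 2 were above the IP libraries and unbound replicate 3 was below them. The log2 fold change was -0.40 ± 0.35 (SE; edgeR, Benjamini-Hochberg adjusted p = 0.375). Without unbound replicate 3 it passed as lower, at -0.75 ± 0.15 (SE; edgeR, Benjamini-Hochberg adjusted p = 0.00243).

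Lmo2, the bridge between Tal1 and GATA factors in blood and endothelium, spans 103957986 to 103981878 of chromosome 2, plus strand. Levels were 11.9, 11.8 and 9.63 CPM in IP, against 23.6, 18.3 and 10.7 CPM in unbound RNA. Unbound replicate 3 fell within the IP range and the other unbound libraries lay above it. The log2 fold change was -0.66 ± 0.27 (SE; edgeR, Benjamini-Hochberg adjusted p = 0.0796), and without unbound replicate 3 it passed at -0.92 ± 0.19 (SE; edgeR, Benjamini-Hochberg adjusted p = 0.00302). DESeq2 called Lmo2 lower with all libraries, at -0.70 (DESeq2, Benjamini-Hochberg adjusted p = 0.0450), so 1 of 6 members was higher and 2 of 6 lower by that tool, against 21.7% and 26.2% of its genes. Some markers of vascular cells also fell. Of 15 endothelial and mural markers 13 were tested and 7 fell, against 23.2% of all tested genes. The list summed to 6.82 to 12.1 CPM in IP, against 27.7 to 50.1 CPM in unbound libraries. Without unbound replicate 3, where Lmo2 passed as lower, 5 of the 13 fell, against 25.8% of all genes. Unbound replicate 3, the lowest unbound library for Lmo2, had the highest vascular sum. Of 12 microglia markers 11 fell, against the same 23.2% with all libraries. Their sums were 11.6 to 32.0 CPM in IP, against 158, 117 and 101 CPM in unbound replicates 1 to 3. Unbound replicate 3 was thus the lowest unbound library for microglia markers, as for Lmo2. The part of either cell type in the Lmo2 values was not tested.

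Lmo1, a close relative of Lmo3 first known from T-cell leukaemia, spans 109138572 to 109175207 on the minus strand of chromosome 7. It stood at 9.96, 8.49 and 10.3 CPM in IP, against 4.04, 5.81 and 11.99 CPM in unbound libraries. The IP libraries were above unbound replicates 1 and 2 and below unbound replicate 3. Its log2 fold change was 0.39 ± 0.36 (SE; edgeR, Benjamini-Hochberg adjusted p = 0.404), and without unbound replicate 3 it passed as higher at 0.96 ± 0.24 (SE; edgeR, Benjamini-Hochberg adjusted p = 0.00938). Lmo1 was thus the LIM-only member with a positive value, while Lmo2, Lmo3 and Lmo4 had negative ones, but the sign of Lmo1 depends on the scaling. With 20 pan-neuronal markers as the scale the median of all genes was -0.52, against -0.01 with TMM. Lmo1 was then at -0.10 and Ldb1 at -0.0011, neither called, and Ldb2 passed as lower at -0.38 beside Lmo2 at -1.18 and Lmo3 at -1.56. That made 0 of 6 members higher, against 4.80% of all genes, and 3 of 6 lower, against 41.2%. Relative to the median of all genes in each fit, Ldb1 was at 0.53 with TMM and at 0.52 with the pan-neuronal scale. Ldb2 was at 0.14 in both, Lmo1 at 0.41 and 0.42, and Lmo3 at -1.02 and -1.03. A change of scaling moves all genes by nearly the same amount. These values therefore had to be close, and they are no check of the calls.

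**Figure D2:**
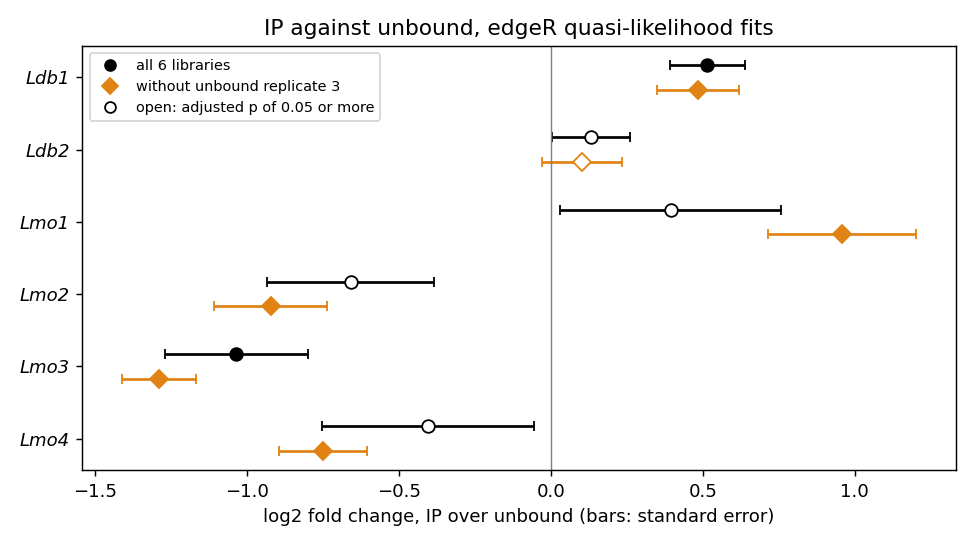
Log2 fold change of each cofactor, IP over unbound, with its standard error from edgeR fits on all 6 libraries (black circles) and without unbound replicate 3 (orange diamonds); filled symbols have an adjusted p under 0.05. Ldb1 and Lmo3 are filled in both fits, at 0.52 and -1.04 with all libraries, while Lmo1, Lmo2 and Lmo4 are filled only in the fit without that library and Ldb2 in neither.

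Unbound replicate 3 differed from the other unbound libraries in the Lmo genes and hardly in the Ldb genes. On the log2 CPM scale it was 1.30 higher than the mean of unbound replicates 1 and 2 for Lmo1, and it was lower by -0.95 for Lmo2, -0.93 for Lmo3 and -1.42 for Lmo4. For Ldb1 and Ldb2 the gaps were -0.08 and -0.07. Gaps larger than that of Lmo4 were seen for 6.35% of tested genes, and larger than that of Ldb1 for 87.4%. The striatal and cortical marker sum was low and the midbrain and monoaminergic sum high in that library, and their part in the Lmo values was not tested.

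Levels of different genes were compared as CPM per kilobase of annotated exon, with exon lengths from GENCODE M21, which may differ from the authors' annotation. In IP libraries Ldb2 ranked first in each, at 21.7 ± 1.84 CPM per kb, before Lmo3 at 18.2 ± 0.93. Ldb1 at 15.2 ± 1.14 and Lmo4 at 13.8 ± 1.91 came next and overlapped, followed by Lmo1 at 6.17 ± 0.62 and Lmo2 at 5.13 ± 0.60, which also overlapped. In unbound libraries Lmo3 ranked first in each, at 37.2 ± 12.1 CPM per kb, followed by Ldb2 at 19.8 ± 0.88, Lmo4 at 18.3 ± 8.40, Ldb1 at 10.7 ± 0.32, Lmo2 at 8.10 ± 2.98 and Lmo1 at 4.69 ± 2.69 (SD, n = 3 each throughout). Lmo4 overlapped Lmo3, Ldb2, Ldb1 and Lmo2 there, and Lmo2 also overlapped Ldb1 and Lmo1. Among the 14949 tested genes with a length, Lmo3 stood at percentile 82.6 in IP and 93.9 in unbound RNA by this level, and Ldb1 at 79.4 in IP and 74.9 in unbound RNA.

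Summed per kilobase, the 4 Lmo genes came to 44.3, 45.4 and 40.2 in IP libraries, against 80.0, 80.4 and 44.6 in unbound replicates 1 to 3. The Ldb pair summed to 36.6, 38.7 and 35.5 CPM per kb in IP, against 31.6, 30.3 and 29.5 in unbound libraries. Lmo over Ldb was therefore 1.21, 1.17 and 1.13 in IP and 2.53, 2.65 and 1.51 in unbound libraries, with no overlap between the groups and unbound replicate 3 nearest to IP. Within the Lmo sum, Lmo3 made up 42.0% ± 1.65 in IP and 54.2% ± 1.72 in unbound libraries (SD, n = 3 each), and here unbound replicate 3, at 52.2%, stayed near the others. Lmo1 made up 14.5%, 12.05% and 16.5% in IP, against 3.25%, 4.66% and 17.3% in unbound libraries.

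**Figure D3:**
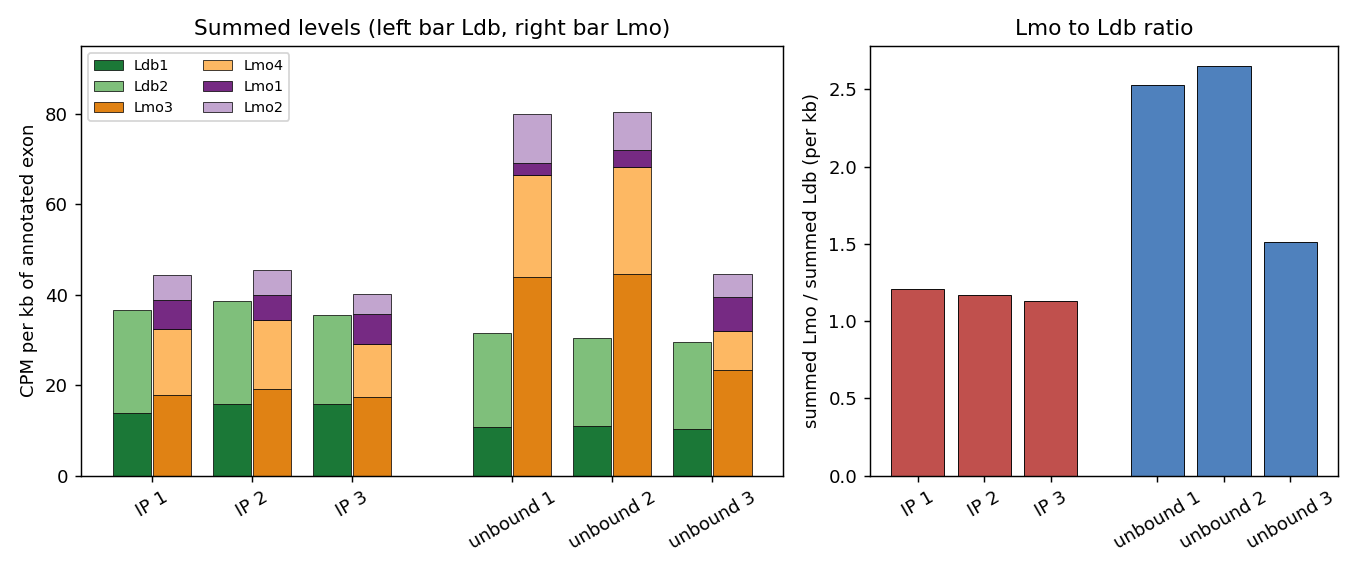
Left, CPM per kilobase of annotated exon in each library, stacked for Ldb1 and Ldb2 (left bar) and for the 4 Lmo genes (right bar); right, the summed Lmo level divided by the summed Ldb level, IP libraries in red and unbound libraries in blue. The Lmo to Ldb ratio is 1.13 to 1.21 in IP and 1.51 to 2.65 in unbound libraries, and most of the difference in bar height is in Lmo3.

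Ratios of counts within a library compare 2 members without library scaling. With 3 against 3 libraries the smallest exact p is 0.1, so no ratio could pass at 0.05, and the differences are given as description. Lmo3 over Ldb1 averaged 0.41 ± 0.11 in IP and 1.90 ± 0.49 in unbound libraries on the log2 scale (SD, n = 3 each), a difference of -1.49 with no overlap (two-sided exact permutation p = 0.1, adjusted 0.167). Lmo3 over Lmo4 averaged 0.94 ± 0.16 in IP and 1.64 ± 0.29 in unbound libraries, a difference of -0.70, also without overlap (two-sided exact permutation p = 0.1, adjusted 0.167). In unbound replicate 3 this ratio was 1.97, so Lmo3 and Lmo4 were both low in that library but Lmo4 more so. Lmo4 over Ldb1 differed by -0.79 and Lmo1 over Lmo4 by 0.82, and both overlapped (two-sided exact permutation p = 0.3 and 0.4, adjusted 0.375 and 0.4). The difference for Lmo1 over Lmo4 was 1.73 without unbound replicate 3, 0.25 without unbound replicate 1 and 0.48 without unbound replicate 2, and that of Lmo4 over Ldb1 was -1.24 without unbound replicate 3. Without the same library Lmo3 over Ldb1 differed by -1.77 and Lmo3 over Lmo4 by -0.53.

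Windows from 250 bases before to 50 after the annotated start were listed by RefSeq (GRCm38.p6) for 4 of the 6 members, Ldb1, Lmo1, Lmo3 and Lmo4. The most upstream window is shown for the genes that passed with all libraries, Ldb1 and Lmo3, and for Lmo1, the LIM-only gene that went the other way without unbound replicate 3, so that letters read by LIM homeodomain and bHLH factors can be compared. Capitals mark TAATTA, a core bound by many homeodomain proteins, CANNTG, the E-box of bHLH factors, and GATAA, searched on both strands.
Ldb1 (chr19:46045262-46045561, minus strand): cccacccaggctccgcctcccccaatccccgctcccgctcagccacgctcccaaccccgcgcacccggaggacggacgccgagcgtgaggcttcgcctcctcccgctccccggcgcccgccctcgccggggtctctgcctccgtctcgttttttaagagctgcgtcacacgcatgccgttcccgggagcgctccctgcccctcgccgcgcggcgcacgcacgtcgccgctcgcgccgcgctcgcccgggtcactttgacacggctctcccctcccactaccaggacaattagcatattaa
Lmo3 (chr6:138581919-138582218, minus strand): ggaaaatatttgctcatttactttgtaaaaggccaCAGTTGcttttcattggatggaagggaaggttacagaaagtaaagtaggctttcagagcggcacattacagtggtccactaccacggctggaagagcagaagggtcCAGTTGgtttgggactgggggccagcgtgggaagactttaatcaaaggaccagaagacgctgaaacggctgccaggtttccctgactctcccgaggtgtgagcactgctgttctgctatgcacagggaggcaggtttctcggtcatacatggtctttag
Lmo1 (chr7:109175158-109175457, minus strand): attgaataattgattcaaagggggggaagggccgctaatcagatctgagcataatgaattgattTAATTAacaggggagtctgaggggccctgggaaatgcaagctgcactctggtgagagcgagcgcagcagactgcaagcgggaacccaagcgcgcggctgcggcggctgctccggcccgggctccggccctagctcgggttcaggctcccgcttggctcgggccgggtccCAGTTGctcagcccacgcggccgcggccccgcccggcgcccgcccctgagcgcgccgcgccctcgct
The Lmo1 window held 1 TAATTA, 186 bases before the start, and 1 CANNTG at 17 bases before it. The Lmo3 window held 2 CANNTG, at 215 and 109 bases before the start, and this Ldb1 window held no match to any of the 3 motifs. The other windows were not free of them. Ldb1 has 3 listed windows, and the most downstream one held 2 CANNTG, at 247 bases before and 15 after the start, and 2 GATAA, at 240 and 200 bases before it. Of all 32851 such windows, 5.29% held TAATTA, 72.3% CANNTG and 25.4% GATAA on either strand, and matches are described as letters only.

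The partners of these cofactors went both ways. Of the 12 LIM homeodomain genes 9 were tested, and 1 rose and 2 fell, where 21.1% of all tested genes rose and 23.2% fell, with a median log2 fold change of -1.50 against -0.01 for all genes. The gene that rose was Lhx5 (4.18), the driver gene of the line, used above to check the labels. No other LIM homeodomain gene was called higher with all libraries. Lhx2 (-1.50) and Lmx1a (-1.85) fell. Lmx1a had few counts, 5, 13 and 39 in IP, against 67, 55 and 76 in unbound libraries. Without unbound replicate 3 it did not pass (edgeR, Benjamini-Hochberg adjusted p = 0.0573). Lhx1 stood at 34.7, 24.8 and 49.0 CPM in IP, against 1.83, 1.40 and 12.6 CPM in unbound libraries, groups that did not overlap. It did not pass with all libraries, at 2.77 (edgeR, Benjamini-Hochberg adjusted p = 0.0551), and passed once replicate number was blocked, at 3.39 (edgeR, Benjamini-Hochberg adjusted p = 0.00749), or without unbound replicate 3, at 4.48 (edgeR, Benjamini-Hochberg adjusted p = 2.2e-05). Without that library 3 of 9 rose, Lhx1, Lhx3 and Lhx5, and 4 of 9 fell, Isl1, Lhx2, Lhx6 and Lhx8, against 24.0% and 25.8% of all genes. Lhx3 had few counts, 14, 20 and 18 in IP, against 2 and 4 in unbound replicates 1 and 2. It passed narrowly in that fit (edgeR, Benjamini-Hochberg adjusted p = 0.0436). The number that fell was 0 without IP replicate 1 and 1 without any other single library except unbound replicate 3.

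Among proteins that act on Ldb itself, the single-stranded DNA-binding proteins Ssbp2, Ssbp3 and Ssbp4 bind and stabilise Ldb, and Rlim is a ubiquitin ligase that targets it. Of these 4 tested genes 1 rose, Ssbp4, against 21.1% of all genes, and none fell, against 23.2%. Ssbp4 was at 37.5, 32.9 and 37.8 CPM in IP, against 25.4, 23.3 and 19.9 CPM in unbound libraries, a log2 fold change of 0.66 ± 0.15 (SE; edgeR, Benjamini-Hochberg adjusted p = 0.00740). Values of the others were 0.19 for Ssbp2, 0.32 for Ssbp3 and 0.36 for Rlim, with a list median of 0.34. Without unbound replicate 3 Ssbp3, Ssbp4 and Rlim were called higher, 3 of 4 against 24.0% of all genes. Blocking on replicate number added Rlim (0.35) to Ssbp4, 2 of 4 genes where that fit called 23.3% of all genes higher and 23.6% lower. Under pan-neuronal scaling 0 passed and Ssbp2, Ssbp3 and Rlim had negative values.

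Of 13 bHLH, GATA and other factors known to bind Lmo proteins or work beside them 10 were tested, and 1 rose and 5 fell, against 21.1% and 23.2% of all genes, with a median of -0.88. Nhlh2, a bHLH factor of hypothalamic neurons, was the gene that rose, at 59.1, 50.8 and 60.3 CPM in IP against 7.85, 4.27 and 7.87 CPM in unbound libraries (log2 fold change 3.09 ± 0.24, SE; edgeR, Benjamini-Hochberg adjusted p = 1.0e-04). The E proteins, general dimer partners of bHLH factors, fell, with Tcf12 at -1.05, Tcf4 at -1.30 and Tcf3 at -0.71. Gata2 and Tal1 also fell. Gata2 had 0, 1 and 1 counts in the IP libraries, against 39, 16 and 411 counts in the unbound ones. Tal1 had 4, 5 and 9 counts in IP, against 72, 33 and 1238 in unbound libraries. Gata3, which did not pass the count filter, had 15, 3 and 2 counts in IP, against 2, 2 and 1011 in unbound replicates 1 to 3. For Gata2, Gata3 and Tal1, as for Lmo1, the highest library was unbound replicate 3. The number that fell was 6 without unbound replicate 3, against 25.8% of all genes, and 3 without IP replicate 3.

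Other genes with LIM domains act mostly at the cytoskeleton and cell contacts. Of 36 tested members of a list of 37, 3 rose and 19 fell, against 21.1% and 23.2% of all genes, with a median of -0.82. Without unbound replicate 3 the counts were 4 and 22, against 24.0% and 25.8%. Ablim3 (0.53), Limk2 (0.59) and Fhl1 (0.49) rose. Csrp1, best known from smooth muscle, averaged 28.3 ± 5.41 CPM over IP and 227 ± 46.8 CPM over unbound libraries (SD, n = 3 each), a log2 fold change of -3.00, and Pdlim5 (-2.08), Lims1 (-1.56) and Pxn (-1.98) fell as well. The number that rose was 1 without IP replicate 1 and 1 without unbound replicate 2.

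**Figure D4:**
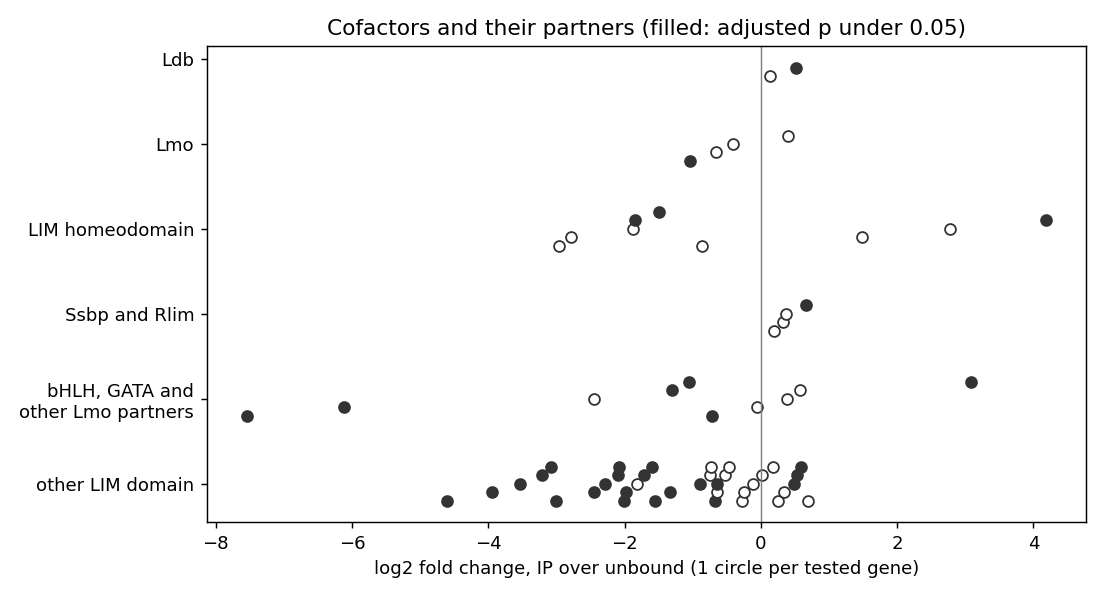
Log2 fold change, IP over unbound, of each tested gene among the Ldb and Lmo genes and 4 lists of partners and relatives; filled circles have an adjusted p under 0.05 in edgeR's test and open ones do not. Lhx5 at 4.18 and Nhlh2 at 3.09 lie farthest to the right, and the Ldb and Lmo genes lie between -1.04 and 0.52.

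Levels of cell type markers moved with the same comparison. Of the tested markers, 13 of 14 for astrocytes, 12 of 12 for oligodendrocytes, 7 of 8 for their precursors and 7 of 9 for ependymal cells and tanycytes fell. Over all tested genes 21.1% rose and 23.2% fell in the same fit. Dio2, a tanycyte gene, was at 3.71, 5.91 and 3.85 CPM in IP, against 54.5, 68.6 and 59.8 CPM in unbound libraries. Crym, also on the tanycyte list and not called, was at 5.39, 9.48 and 3.47 CPM in IP, against 47.3, 46.1 and 1.51 CPM in unbound replicates 1 to 3. Pan-neuronal markers rose in 12 of 20 cases and 1 fell. The astrocyte list summed to 548 to 843 CPM in IP, against 2309 to 2513 CPM in unbound libraries, and the oligodendrocyte list to 360 to 605 CPM in IP, against 3877 to 7438 CPM in unbound libraries. Of 7 tested markers on the thalamic list 1 rose, Slc17a6 (2.08), and 4 fell. Of 14 striatal and cortical markers 1 fell, and of 7 tested midbrain and monoaminergic markers 3 fell. Without unbound replicate 3 the striatal and cortical list had 1 marker that rose and 11 that fell, the midbrain and monoaminergic list 1 and 2, the thalamic list 2 and 4, and 15 pan-neuronal markers rose. Of all genes tested without that library, 24.0% rose and 25.8% fell. In that fit 8 of 10 ependymal and tanycyte markers and 5 of 13 endothelial and mural markers fell, and the counts of fallen astrocyte, oligodendrocyte, precursor and microglia markers were as before. The part of these cell types in the cofactor values was not tested.

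The genes most like each cofactor across the 6 libraries were taken as the 3 with the smallest root mean square difference in centred log2 CPM among 14260 tested genes. For Ldb1 these included Hyls1 and Fam179b, at differences of 0.028 and 0.034. Fam179b stood at 113, 127 and 134 CPM in IP, against 89.1, 93.8 and 85.4 CPM in unbound libraries. For Ldb2 they were Sh2b3, Cd2bp2 and Gpr137b (0.022 to 0.038). Lmo3 was matched by Rps6ka3, Ctdspl and Cpne4 (0.096 to 0.10), and Lmo2 by Htr1f, R3hdm4 and Vrk1 (0.076 to 0.096). The nearest to Lmo4 were Chat, Kcns2 and Camkv (0.057 to 0.079), all lowest in unbound replicate 3. For Lmo1, matched by Arhgap22, Fgf18 and Egln3, the differences of 0.17 to 0.19 were larger than for the other members.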

How the data were processed

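RNA-seq was run on 3 IP and 3 unbound libraries of the hypothalamus, grouped by the sample type in the labels. The authors deposited unnormalised counts for each gene, made by STAR 2.0.0e alignment to mm10 and HTSeq, per the submitters' processing notes. Which annotation, strand setting and overlap mode they chose is not given in the sources used here. Summary entries that name no gene, 52.3% to 55.0% of reads listed, stayed out. Their parts differed between the groups without overlap. Reads with multiple alignments were 43.8% to 45.0% in IP libraries and 31.8% to 32.9% in unbound ones. Reads with no feature were 7.57% to 8.00% in IP and 12.5% to 13.5% in unbound libraries. Ambiguous reads were 1.58% to 1.64% in IP and 7.08% to 9.02% in unbound libraries. The effect of this on the gene values was not tested. Replicates of a group differed by more than counting noise (chi-square per degree of freedom 24.4 to 145).

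The tests used edgeR 4.0.16 under R 4.3.3, with TMM scaling, filterByExpr at a minimum count of 10, robust quasi-likelihood fits with group as the one term, and Benjamini-Hochberg adjustment. Standard errors are the log2 fold change over the square root of F. The test was checked on simulated data. Log2 ratios used a pseudocount of 0.5 counts, and likeness used a prior count of 2. The members and lists were chosen with earlier results of these data known. Named genes are the members, Lhx5, up to 4 called genes per partner list and direction, the 3 nearest genes per member and the 2 most abundant genes of each marker list, of which a few are printed. One of the genes nearest to Ldb1 is not reported here. Lhx1, Lhx3, Lhx6, Lhx8, Isl1, Tal1, Gata3, Ssbp2, Ssbp3 and Rlim were named after their values were seen. Alternatives were other scalings, count filters, DESeq2 1.42.0, limma-voom (limma 3.58.1), the replicate block, lane, and each library or the third pair left out; lane 2 alone was added after seeing the data.

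Replicate numbers are shared between groups. Deviations from the group means of same-numbered libraries correlated over genes at 0.139, 0.164 and 0.206, each above 0.1. Those of libraries with different numbers correlated at -0.165 to 0.0435. The replicate block and the fit without the third pair therefore took the numbers as pairs, by that check and not from a label. The main test did not use pairs. Lane 4 held replicate 2 and lane 2 the rest, so for replicate 2 a pair and a shared lane cannot be told apart.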

Additional observations from a re-analysis of the deposited data

How the results depend on the processing

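Of 102 values of the 6 members under 17 alternative fits, 89 kept their direction and their side of the threshold. Pan-neuronal scaling brought Ldb1 to -0.0011, Ldb2 to -0.38 and Lmo1 to -0.10, and Lmo2 passed at -1.18, so 0 members were higher and 3 lower, with 815 genes higher and 7002 lower over all, against 3586 and 3943. It also left 0 of the Ssbp and Rlim list and 0 of the other LIM domain genes higher, and this scaling lowered the median of all genes. DESeq2 brought Lmo2 to -0.70, with 2 members lower. Leaving out a library gave log2 fold changes of 0.49 to 0.59 for Ldb1, 0.10 to 0.23 for Ldb2, 0.16 to 0.96 for Lmo1, -0.92 to -0.36 for Lmo2, -1.29 to -0.88 for Lmo3 and -0.75 to -0.17 for Lmo4. It gave 1 to 2 members higher and 1 to 3 lower, 1 to 3 LIM homeodomain genes higher and 0 to 4 lower, 1 to 3 of the Ssbp and Rlim genes higher, 3 to 6 bHLH and GATA genes lower, and 1 to 4 other LIM domain genes higher. The number called over all genes moved too, from 2489 to 4139 higher and from 3263 to 4448 lower. Without the third pair Lmo1 passed at 0.89, Lmo2 at -0.84 and Lmo4 at -0.65, with 2 members higher and 3 lower, 3 LIM homeodomain genes higher and 5 lower, 2 Ssbp and Rlim genes higher and 5 other LIM domain genes higher. That fit called 26.0% of all genes higher and 27.3% lower. With lane 2 alone Ldb1 (0.51) and Lmo3 (-0.93) did not pass, leaving 0 members called in either direction, 1 LIM homeodomain gene lower, 0 Ssbp and Rlim genes and 0 other LIM domain genes higher, 3 bHLH and GATA genes lower, and 1297 genes higher and 2538 lower over all; fewer samples entered this fit. LIM homeodomain genes higher numbered 2 with a 1 CPM filter, DESeq2, limma-voom, the replicate block or lane as a covariate, and 1 was lower with lane. The replicate block also gave 2 Ssbp and Rlim genes higher, and it changed no call of a member: Lmo2 was at -0.59 (edgeR, Benjamini-Hochberg adjusted p = 0.0502) and Lmo3 at -0.98. The 5 count ratios kept their sign in all 45 alternative values. Under the replicate block the differences equal the main ones by construction, and a larger pseudocount hardly moved them. Only the values with libraries left out could have changed much. The cause of these changes was not tested.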
